A study of Macaca fascicularis and Macaca mulatta and Papio anubis with 20 samples.

Results

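The secreted frizzled-related proteins are 5 genes, SFRP1, SFRP2, SFRP4, SFRP5 and FRZB, chosen by their symbols. All 5 were present among the 22000 features counted in the Macaca fascicularis sections, the 20842 features of the sections labelled Macaca mulatta and the 21369 features of those labelled Papio anubis. Wnt proteins signal through Frizzled receptors and LRP5 or LRP6 co-receptors, and the secreted frizzled-related proteins carry a Frizzled-like cysteine-rich domain that binds Wnt ligands outside the cell. They act mostly as antagonists of Wnt signalling. By sequence SFRP1, SFRP2 and SFRP5 form a subgroup, and SFRP4 and FRZB (also called SFRP3) are more distant relatives. In peripheral nerve the Wnt pathway is known from Schwann cell development and myelination, and SFRP2 and SFRP4 are widely used as fibroblast genes.

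The genes were read in Visium sections of fresh-frozen dorsal root ganglia, which hold the cell bodies of sensory neurons. Transcripts are captured by a grid of spots and counted as unique molecular identifiers (UMIs). Each spot covers an area in which parts of several cells may lie. M. fascicularis gave 16 sections under 4 title codes, a female and a male code in batch 1 and a female and a male code in batch 2, with 4 sections each. Sections of a code were treated as 1 specimen, which the labels do not state. The sections labelled M. mulatta and P. anubis, 2 each under 1 code, were labelled batch 2 without a sex. No treatment, genotype or age was labelled for any group. The feature identifiers of these 4 sections carry the Ensembl prefix of the other species, so the labels M. mulatta and P. anubis may be crossed, and their values are given by label only. Tissue spots numbered 35029, of which 23974 were M. fascicularis. UMIs under tissue ran from 1136433 to 7073134 per M. fascicularis section, were 190376 and 264661 in the sections labelled M. mulatta, and were 595020 and 12595205 in those labelled P. anubis. A neuron marker list (neurofilament and synaptic genes) held between 15372 and 31824 CPM (UMIs of a gene or list per 1000000 UMIs) in the M. fascicularis sections, so ganglion tissue was present in all 16. Levels were not tested between genes, and no gene length entered them. Where genes are ranked by level, the ranking is of UMIs or CPM only.

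SFRP4 differed most plainly between the batches. In batch 1 it stood at 1036, 146, 222 and 206 CPM in the female sections and at 150, 445, 537 and 221 CPM in the male sections. In batch 2 it stood at 29.8, 11.4, 5.79 and 33.2 CPM in the female sections and at 4.66, 22.1, 15.8 and 7.92 CPM in the male sections. Every section of batch 1 lay above every section of batch 2, and within a batch the ranges of the female and male sections overlapped. Female section 1 of batch 1 lay far above the other sections of its specimen. FRZB, a secreted Wnt antagonist known from cartilage, was more even: 191 to 239 CPM in batch 1 (median 204), 76.0, 43.5, 27.0 and 48.4 CPM in the female sections of batch 2, and 102, 92.4, 83.9 and 88.9 CPM in the male ones. Its batches did not overlap either, and in batch 2 the male sections lay above the female ones.

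The other members overlapped between the batches. SFRP5, a secreted antagonist studied as an adipose-tissue factor, ran from 53.4 to 176 CPM in batch 1 (median 99.3) and from 44.7 to 80.2 CPM in batch 2 (median 61.6). SFRP2, a fibroblast-associated member, ran from 6.79 to 27.7 CPM (median 15.6) in batch 1 and from 0 to 11.6 CPM (median 3.41) in batch 2. SFRP1 was the sparsest of them, with 0.936 to 9.41 CPM in batch 1 and 0.535 to 8.21 CPM in batch 2. The SFRP2 medians lay farther apart as a ratio than those of FRZB, but its ranges overlapped, as did those of SFRP5 and SFRP1. SFRP2 gave 0 UMIs in male section 4 of batch 2, which allows up to 2.64 CPM at 3 counts, and SFRP1 gave 34 of its 67 batch 2 UMIs in female section 3.

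The batch comparison was made on UMIs summed per specimen, 2 specimens against 2, with sex as a covariate (edgeR quasi-likelihood test, Benjamini-Hochberg adjustment over 12650 features). SFRP4 fell by 4.14 on the log2 scale in batch 2 (SE 0.33, adjusted p = 0.00124 in edgeR). FRZB fell by 1.49 (SE 0.25, adjusted p = 0.0238). These were 2 of 5 members called, both lower, where 2.88% of all features were called in either direction and 1.61% were called lower. The members' median log2 difference was -1.49 and that of all features -0.01. SFRP5 (-0.75, SE 0.21, adjusted p = 0.107), SFRP2 (-1.96, SE 0.62, adjusted p = 0.148) and SFRP1 (-0.73, SE 0.51, adjusted p = 0.497) did not pass in edgeR. DESeq2 called SFRP2 as well (adjusted p = 0.0218). Without male section 1 or male section 2 of batch 2, FRZB was no longer called (adjusted p = 0.0532 and 0.0609 in edgeR). Batch here means the labelled batch: among the M. fascicularis sections each batch holds its own 2 title codes and its own Space Ranger version, and these cannot be told apart.

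Marker lists for other cells moved with the batches. The fibroblast list, of which 8 of 10 genes were measured, summed to 806 to 2550 CPM in batch 1 and 153 to 507 CPM in batch 2. Its gene DCN was above 0 in every section, while PDGFRA was at 0 in some sections of either batch. The smooth muscle list overlapped, at 249 to 1215 CPM against 158 to 597 CPM, and the adipocyte list ran the other way, at 1005 to 1559 CPM against 2257 to 5929 CPM. A single gene, LPL, made 89.2% to 99.9% of the adipocyte list in these sections, and PLIN4 was at 0 in every section but male section 1 of batch 2, so adipocyte-rich spots are in effect spots rich in LPL. SFRP4 was then compared within kinds of spots, a choice made after the data had been seen. Each kind was a separate fit of 2 specimens against 2, so adjusted p-values cannot be ranked across kinds. Among the spots outside the fibroblast-rich ones it fell by 3.87 (SE 0.36, adjusted p = 0.00689 in edgeR), where 1.5% of features were called. Among smooth-muscle-rich spots it fell by 4.62 (SE 0.81, adjusted p = 0.00887), where 2.29% were called. Among Schwann-rich spots it fell by 4.6 (SE 0.47, adjusted p = 3.11e-19), where 6.73% were called. Among fibroblast-rich spots the difference was -5.01 (SE 0.92, adjusted p = 0.0633), which did not pass, and 0.681% were called. It passed as well outside the smooth-muscle-rich (-4.04) and outside the Schwann-rich spots (-4.21), where 4.75% and 3.54% of features were called. FRZB passed in these last 2 kinds of spots (-1.56 and -1.54, adjusted p = 0.00315 and 0.0107 in edgeR) and not in the other 4, where it ranged from -1.55 to -0.50. In spots that mix cells, fewer cells of a type and less RNA per cell cannot be told apart.

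No member was called between the sexes in the same fit, in which 0 of 12650 features passed (0% called) and 169 features had an unadjusted p below 0.05. DESeq2 also called 0 features, with 187 below that value. FRZB differed by 0.43 (male minus female, SE 0.24) and SFRP2 by -0.93 (SE 0.61), both with an adjusted p of 0.998 in edgeR. There were 2 specimens of each sex.

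Between the labelled species the members went separate ways, described here without a test, since each other species has 1 title code. SFRP1 stood at 31.5 and 106 CPM in the sections labelled M. mulatta (6 and 28 UMIs) and at 103 and 54.3 CPM in those labelled P. anubis (61 and 684 UMIs), against at most 9.41 CPM in M. fascicularis. Spots of at least 200 UMIs held 0 SFRP1 UMIs in both sections labelled M. mulatta and 7 in section 1 labelled P. anubis. Median UMIs per tissue spot in these sections were 62, 61 and 113. Off the tissue SFRP1 stood at 27.4, 52.9 and 72.2 CPM there, and at 213 CPM in section 2 labelled P. anubis. By CPM over all tissue spots the other species lay above all 16 M. fascicularis sections. SFRP5 went the opposite way, with 0 and 3 UMIs in the sections labelled M. mulatta and 0 and 4 UMIs in those labelled P. anubis, against at least 44.7 CPM in M. fascicularis. In section 2 labelled P. anubis, the deepest of the series, the 4 UMIs of SFRP5 made 0.318 CPM (95% exact Clopper-Pearson interval 0.0865 to 0.813). At 3 counts, the limit used here for a count of 0, the 0 in section 1 labelled M. mulatta allows up to 15.8 CPM and that in section 1 labelled P. anubis up to 5.04 CPM (exact upper bounds 19.4 and 6.20 CPM).

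FRZB stood at 101 and 95.3 CPM in the sections labelled P. anubis, within the range of M. fascicularis, and gave 0 and 2 UMIs in the sections labelled M. mulatta, the latter 7.56 CPM (exact interval 0.915 to 27.3). SFRP4 stood at 573 and 302 CPM in the sections labelled M. mulatta and at 267 and 161 CPM in those labelled P. anubis. These values fell inside the range of batch 1 of M. fascicularis and above all of batch 2, the batch given in the labels of the other species. SFRP2 stood at 25.2 and 12.6 CPM in the sections labelled P. anubis, and at 0 and 3.78 CPM (1 UMI) in those labelled M. mulatta. Over the 13089 symbols shared by all feature tables the mean of SFRP1 was 134 CPM in the M. mulatta label and 144 CPM in the P. anubis label, against 2.84 to 7.35 CPM in the M. fascicularis groups. Each label was counted on its own features, and species, annotation and specimen cannot be told apart. Intervals cover counting error only.

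The order of the group means differed by gene. For SFRP4 it ran from the M. mulatta label (437 CPM, SD 191, n = 2) through the female (402, SD 424, n = 4) and male specimens of batch 1 (338, SD 182) and the P. anubis label (214, SD 75.0) to the female (20, SD 13.5) and male specimens of batch 2 (12.6, SD 7.85). Among neighbours in that order only the P. anubis label and the female specimen of batch 2 did not overlap. For FRZB it ran from the batch 1 specimens (male 214, SD 18.9; female 205, SD 15.3) through the P. anubis label (98.1, SD 3.93) and the male (91.7, SD 7.45) and female specimens of batch 2 (48.7, SD 20.3) to the M. mulatta label (3.78). The P. anubis label overlapped the male specimen of batch 2, and the batch 1 specimens overlapped each other. For SFRP5 the 4 M. fascicularis specimens (means of 60.9 to 110 CPM) overlapped in sequence and stood apart from both other labels (5.67 and 0.159). For SFRP1 the P. anubis (78.4, SD 34.1) and M. mulatta labels (68.7, SD 52.5) overlapped and stood apart from the M. fascicularis specimens (1.83 to 4.78). For SFRP2 the means ran from 18.9 CPM in the P. anubis label to 1.24 CPM in the male specimen of batch 2, and the break lay between the female specimen of batch 2 (7.12, SD 3.27) and the M. mulatta label (1.89).

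Spatial order was described with Moran's I, which is near 0 where neighbouring spots are unrelated and rises as neighbours become alike. In the authors' deposited table SFRP4 had a Moran's I between 0.221 and 0.476 in the sections of batch 1 (median 0.325), with ranks from 4 to 102 among the genes of each section. Their adjusted p was below 0.05 in 8 of 8 of these sections, by the authors' deposited table. In batch 2 the authors' deposited table gave it 0.000978 to 0.138 (median 0.0514), with an adjusted p below 0.05 in 5 of 8 sections. SFRP4 had 484 UMIs in batch 2 against 10850 in batch 1, and the part of these counts in the lower score was not tested. FRZB passed in 11 of 16 M. fascicularis sections, SFRP5 in 12 of 16, SFRP2 in 7 of 15 that list it and SFRP1 in 1 of 16 in the authors' deposited table. The batch 1 medians in the authors' deposited table were 0.0807 for FRZB, 0.0611 for SFRP5, 0.0501 for SFRP2 and 0.0131 for SFRP1. The single SFRP1 section was male section 3 of batch 1 (0.0851, rank 553 in the authors' deposited table), which also held its highest M. fascicularis level. In section 2 labelled P. anubis the authors' deposited table gave SFRP4 0.461, the second rank of 15449 genes, FRZB 0.188, SFRP2 0.147 and SFRP1 0.109. In the sections labelled M. mulatta it ranked SFRP4 4 and 46 by the authors' deposited table, at 0.159 and 0.0386.

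**Figure D1:**
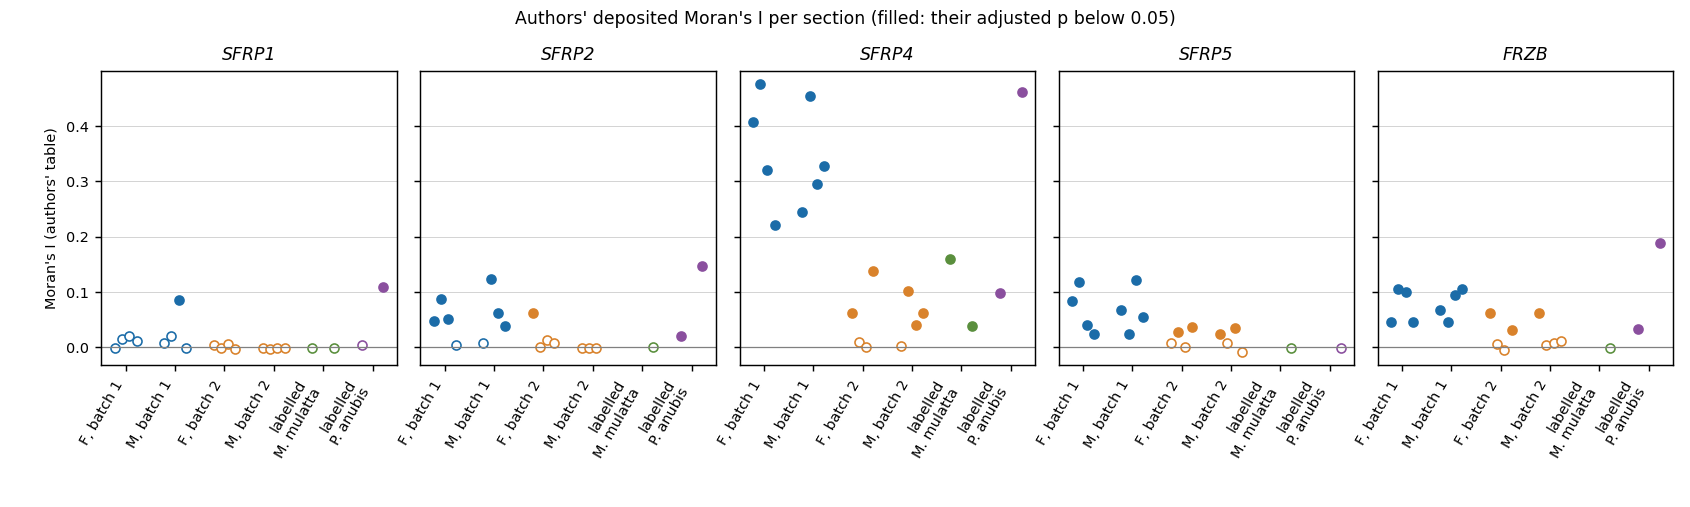
Moran's I of each gene in every section, from the authors' deposited table, with filled points where their adjusted p is below 0.05. F and M are the female and male M. fascicularis specimens of each batch. SFRP4 stands between 0.221 and 0.476 in batch 1 and at most at 0.138 in batch 2, and SFRP1 is near 0 in all M. fascicularis sections but 1.

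Where in the tissue each member lay was read from marker-rich spots. In each of the 15 M. fascicularis sections with a spot matrix, the 25% of spots with the largest share of UMIs in a marker list were set against the other spots (spots of at least 200 UMIs). Counts were summed per specimen and tested in edgeR with the specimen as a block. No member is in any marker list. Over 12 lists and the tissue edge, 33 of 65 pairs of member and list were called, 27 higher and 6 lower. The share of all features called was 42.4% for neurons, 35.4% for Schwann cells, 23.6% for smooth muscle, 22.5% for adipocytes, 16.8% for fibroblasts, 14.7% for macrophages, 5.64% for endothelium, 3.46% for the edge, 3.07% for perineurium, 1.01% for pericytes, 0.35% for satellite glia, 0.292% for endoneurial and 0% for epineurial fibroblasts (793 features at an unadjusted p below 0.05 in edgeR). The lists share spots: 50% of fibroblast-rich spots were also smooth-muscle-rich and 43.3% were also perineurium-rich (medians over sections). Marker-rich spots also differed in depth, with a median of 955.5 UMIs in fibroblast-rich spots against 2122 in the others, 580 against 2191 for Schwann cells and 4526 against 1237 for neurons. The test was therefore repeated with marker-rich spots taken within each of 5 depth bins, a choice made after the data had been seen. Of 60 pairs 31 were then called, and 23 pairs were called both ways, 22 of them in the same direction. The depth-matched shares of features called were 38.1% for neurons, 16.9% for macrophages, 14.3% for fibroblasts, 13.2% for smooth muscle, 12.9% for Schwann cells, 12.7% for adipocytes, 6.45% for perineurium, 5.86% for endothelium, 4.39% for satellite glia, 1.3% for pericytes, 0.685% for epineurial and 0.167% for endoneurial fibroblasts. Depth stayed uneven in the sparser lists. Median UMIs were then 2494 in epineurial-fibroblast-rich spots against 1351.5 in the others, and 3324.5 against 1216.5 for endoneurial fibroblasts. For pericytes they were 2897.5 against 1208 and for satellite glia 2314 against 1320. In these lists depth-matched names the setting and not an equal depth.

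SFRP4 lay in the connective tissue. In fibroblast-rich spots it stood at 2289 CPM against 112 CPM in the other spots of the female specimen of batch 1, at 2355 against 143 CPM in the male one, at 173 against 10.0 CPM in the female specimen of batch 2 and at 21.4 against 5.73 CPM in the male one. It was higher in fibroblast-rich spots in 4 of 4 specimens, by 3.83 on the log2 scale (SE 0.34, adjusted p = 0.00019 in edgeR). With depth matched the difference was 2.77 (SE 0.14, adjusted p = 5.87e-11). It was also higher in smooth-muscle-rich spots (3.55, SE 0.28; depth-matched 2.23) and perineurium-rich spots (2.68, SE 0.36; depth-matched 1.91), in 4 of 4 specimens each. Endothelium-rich spots were called too (1.25, SE 0.15; depth-matched 0.88), but in batch 1 alone was SFRP4 higher there: the batch 2 specimens gave 18.4 against 19.7 CPM and 8.99 against 10.9 CPM. In neuron-rich spots it was lower (-1.83, SE 0.10, adjusted p = 5.88e-10 in edgeR; depth-matched -1.15). Perineurium-rich spots lost the call without the female specimen of batch 1 (adjusted p = 0.241) or of batch 2 (0.0539).

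In the fibroblast fit 4 of 5 members were called, all higher where 11.1% of features were, with a median log2 difference of 2.28 against 0.00 over all features. In the smooth muscle fit 5 of 5 were called, all higher where 13.9% of features were, with a median of 2.65 against 0.01. In the neuron fit 5 of 5 were called, all lower where 21.7% of features were, with a median of -1.60 against -0.04. The SFRP4 calls in Schwann-rich spots (1.13) and adipocyte-rich spots (0.50) did not last: depth-matched values were -0.38 (adjusted p = 0.055) and -0.52 (adjusted p = 1.92e-07).

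SFRP2 resembled SFRP4 at lower counts. In fibroblast-rich spots it stood at 91.7 against 7.80 CPM, 122 against 6.74 CPM, 45.0 against 4.54 CPM and 1.10 against 0.688 CPM in the female and male specimens of batch 1 and batch 2 in that order. It was higher in all 4 specimens, though the male specimen of batch 2 rested on 5 UMIs. The log2 difference was 3.62 (SE 0.26, adjusted p = 4.79e-05 in edgeR; depth-matched 2.19), and smooth-muscle-rich spots gave 3.46 (SE 0.20; depth-matched 1.73). SFRP2 was lower in neuron-rich spots (-1.60, SE 0.15; depth-matched -0.98). Its higher level in Schwann-rich spots (1.59) became -0.15 (adjusted p = 0.633) with depth matched.

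SFRP1 lay elsewhere. In spots rich in genes of myelinating Schwann cells it stood at 29.1 against 2.00 CPM, 37.8 against 2.1 CPM, 32.6 against 0.99 CPM and 5.11 against 1.07 CPM in the same order of specimens. It was higher in Schwann-rich spots in 4 of 4 specimens and in 13 of 15 sections. The log2 difference was 4.17 (SE 0.32, adjusted p = 1.18e-10 in edgeR), and 1.98 (SE 0.22, adjusted p = 3.49e-06) with depth matched. Its differences in smooth-muscle-rich (2.65) and fibroblast-rich spots (2.28) shrank to 0.61 (adjusted p = 0.113) and 0.53 (adjusted p = 0.25), and that in neuron-rich spots (-1.97) to -0.35 (adjusted p = 0.348). Adipocyte-rich spots kept a difference of 1.05 (adjusted p = 0.00327) from 2.66, with SFRP1 higher in 3 of 4 specimens. SFRP1 rests on 100 UMIs in Schwann-rich and 93 UMIs in other spots, and its fibroblast call was lost without the female or the male specimen of batch 1 or the female one of batch 2.

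SFRP5 was higher in several lists at a smaller size. In smooth-muscle-rich spots it stood at 325 against 97.2 CPM, 374 against 78.1 CPM, 171 against 53.9 CPM and 72.8 against 48.8 CPM in the same order. It was higher in 4 of 4 specimens, by 1.60 on the log2 scale (SE 0.21, adjusted p = 0.000515 in edgeR; depth-matched 0.79). Schwann-rich spots gave 1.48 (SE 0.14; depth-matched 0.56), fibroblast-rich spots 1.40 (SE 0.24; depth-matched 0.84) and neuron-rich spots -0.78 (SE 0.10; depth-matched -0.63). In spots rich in perineurial genes, such as the glucose transporter SLC2A1 and the integrin ITGB4, the difference was 1.2 (adjusted p = 0.0532, not called) and 0.80 with depth matched (adjusted p = 6.57e-07). The fibroblast call was lost without either female specimen (adjusted p = 0.0585 for batch 1 and 0.125 for batch 2).

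FRZB had the smallest of the members' differences in fibroblast-rich, smooth-muscle-rich and neuron-rich spots before depth was matched. In neuron-rich spots it stood at 148 against 234 CPM, 158 against 249 CPM, 26.8 against 70.0 CPM and 76.5 against 106 CPM in the same order. It was lower there in 4 of 4 specimens, by 0.70 on the log2 scale (-0.70, SE 0.10, adjusted p = 3.52e-05 in edgeR; depth-matched -0.65). It was higher in smooth-muscle-rich spots (0.92, SE 0.22, adjusted p = 0.0138; depth-matched 0.39), a call lost without the male specimen of batch 1 or the female one of batch 2 (adjusted p = 0.0596 and 0.0523). These were its only calls over 13 fits, where SFRP4 had 8 higher and 2 lower, SFRP2 7 and 1, SFRP5 7 and 1, and SFRP1 4 and 1. With depth matched FRZB had 3 higher calls and 1 lower of 12, adding the fibroblast (0.35, SE 0.06, adjusted p = 0.000491) and perineurium lists (0.34, adjusted p = 0.000488). SFRP1 then had 2 higher and 0 lower, SFRP2 6 and 1, SFRP4 6 and 4, and SFRP5 7 and 1.

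**Figure D2:**
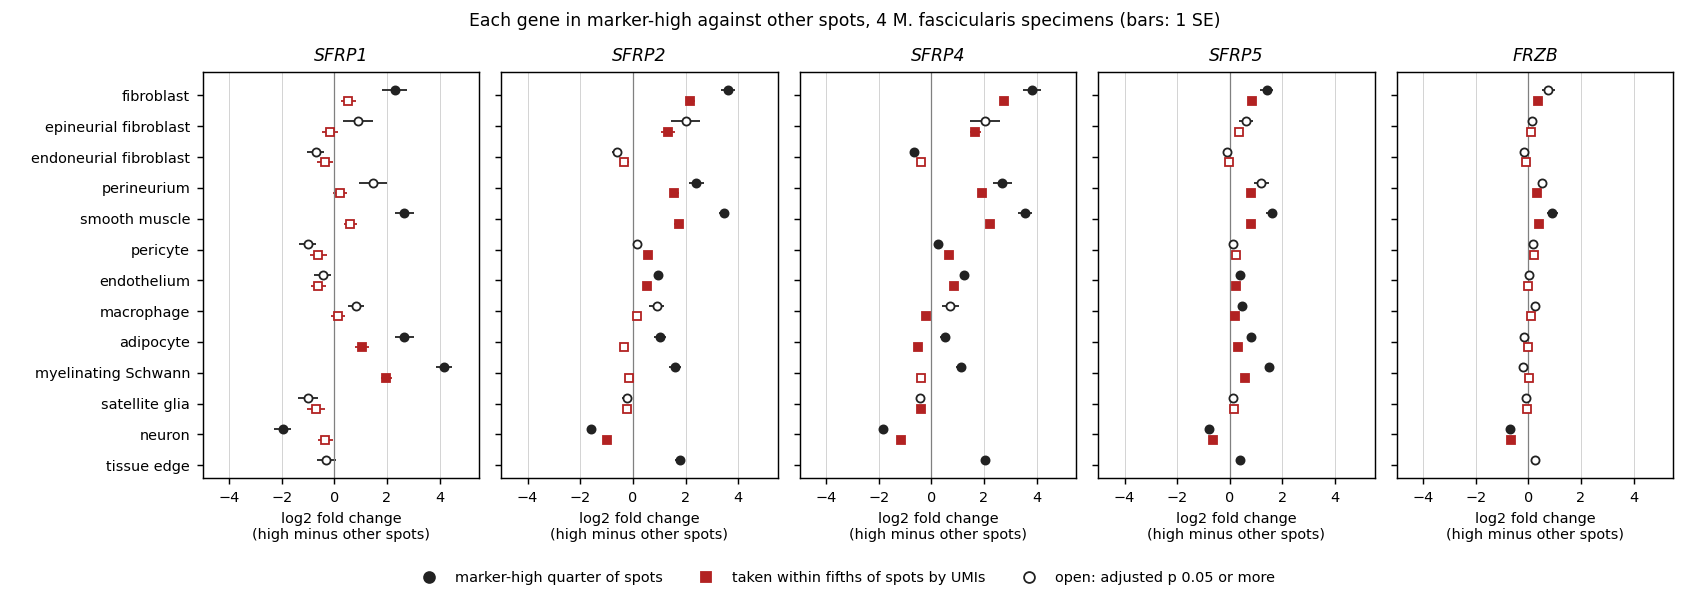
Log2 difference of each gene between marker-rich and other spots (x) for 12 marker lists and the tissue edge (y), over 4 M. fascicularis specimens, with bars of 1 SE. Black circles use the 25% of spots highest in a list, red squares take them within 5 depth bins, and open symbols have an adjusted p of 0.05 or more in edgeR. SFRP4 and SFRP2 are highest for fibroblasts and smooth muscle (3.83 and 3.55 for SFRP4), SFRP1 for myelinating Schwann cells (4.17), and all 5 genes are below 0 for neurons.

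Fibroblast-rich and smooth-muscle-rich spots were next split by their overlap, as values without a test. SFRP4 averaged 1584 CPM over the 4 specimens in spots rich in both lists, 754 CPM in those rich in fibroblast genes alone, 421 CPM in those rich in smooth muscle genes alone and 51.4 CPM in those rich in neither. The standard deviations over specimens were about as large as the means. Spots rich in both lists were highest in all 4 specimens, but fibroblast alone and smooth muscle alone differed little in batch 2, at 118 and 124 CPM in the female specimen and 9.10 and 8.29 CPM in the male one. SFRP1 averaged 20.8 CPM (SD 13.7, n = 4) in spots rich in Schwann genes but in neither of the other lists, and 1.18 CPM (SD 0.31, n = 4) in spots rich in none of the 3. The Schwann-only values rest on 10, 4, 14 and 2 UMIs in the order of specimens used above. SFRP1 also averaged 13.2 CPM in spots rich in both other lists, 12.6 CPM with smooth muscle alone and 10.3 CPM with fibroblast alone. Such spots could be Schwann-rich too. In the male specimen of batch 1 spots rich in both (26.6 CPM) exceeded Schwann-only spots (12.7 CPM). In the other specimens the Schwann-only spots were higher. FRZB averaged 274 CPM in spots rich in both fibroblast and smooth muscle genes and 129 CPM in those rich in neither, and 94.3 CPM in the Schwann-only spots.

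SFRP4 followed the outline of the tissue. Edge spots, those next to a spot off the tissue, held 624 against 183 CPM, 911 against 196 CPM, 66.6 against 11.7 CPM and 16.6 against 8.12 CPM in the interior, in the order of specimens used above. It was higher at the edge in 4 of 4 specimens, by 2.02 on the log2 scale (SE 0.11, adjusted p = 1.92e-07 in edgeR). SFRP2 was also higher there (1.79, SE 0.18, adjusted p = 4.06e-05; 3 of 4 specimens), as was SFRP5 by less (0.37, SE 0.08, adjusted p = 0.0141). FRZB (0.27, adjusted p = 0.15) and SFRP1 (-0.30, adjusted p = 0.796) were not called. DESeq2 did not call SFRP2 there (adjusted p = 0.234), and SFRP5 lost its call without the male specimen of batch 1 (adjusted p = 0.191) or the female one of batch 2 (0.0634).

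By array steps from the outline, pooled over the sections of batch 1, SFRP4 stood at 768 CPM in the outermost tissue spots, then at 367 CPM, 190 CPM, 135 CPM (steps 4 to 5) and 106 CPM (step 6 and deeper). Batch 2 gave 48.4, 17.3, 13.2, 9.23 and 7.27 CPM over the same steps. In these pooled values the order of the steps was the same in both batches. The medians over sections of batch 2 broke it, at 37.3, 11.4, 4.29, 7.44 and 4.71 CPM. FRZB in batch 1 stayed between 190 and 238 CPM. In batch 2 FRZB stood at 79.5, 62.9, 64.1, 54.0 and 47.3 CPM over the same steps. Spots off the tissue also held SFRP4: in batch 1 the nearest ring had 933 CPM, but 49.4 UMIs per 100 spots against 234 in the outermost tissue spots, and the farthest ring had 4.01. In all 15 sections with a matrix the SFRP4 level off the tissue exceeded that under it, and the part of such transcripts in the edge result was not tested. Other members were found off the tissue too. In batch 1 FRZB and SFRP2 exceeded their off-tissue CPM in 0 of 8 sections, and SFRP5 in 2. FRZB and SFRP5 did so in 3 of 7 sections of batch 2. SFRP1 reached 66.5 CPM off the tissue in batch 1, against at most 9.41 CPM under it. The part of such transcripts in the members' tissue differences was not tested.

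**Figure D3:**
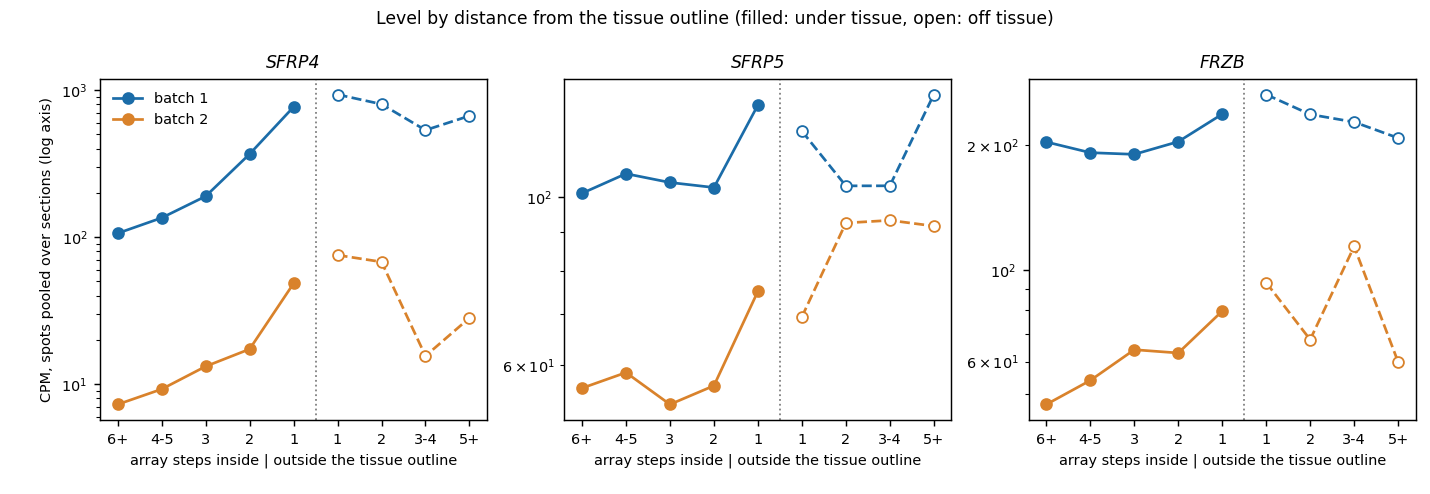
Level of SFRP4, SFRP5 and FRZB in CPM (log axis, one scale per gene) by array steps from the tissue outline, pooled over sections of batch 1 (blue) and batch 2 (orange). Filled points are under the tissue and open points off it. SFRP4 falls from 768 to 106 CPM from the outline inward in batch 1 and from 48.4 to 7.27 CPM in batch 2. FRZB stays between 190 and 238 CPM in batch 1 and goes from 79.5 to 47.3 CPM in batch 2.

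Whether these tissue differences themselves differed between the batches was asked with an interaction term (edgeR, 4 specimens). Each list was a separate fit, so adjusted p-values cannot be ranked across lists. Of 65 pairs 16 were called, 1 higher and 15 lower in batch 2. The share of features called was 28.2% for epineurial fibroblasts, 9.61% for perineurium, 6.29% for adipocytes, 4% for endothelium, 2.97% for satellite glia, 2.13% for endoneurial fibroblasts, 1.35% for Schwann cells, 0.12% for pericytes, 0.118% for the edge and 0.0331% for neurons. For macrophages 0% were called, and 0 members. For fibroblast-rich and smooth-muscle-rich spots 0 members and 0% of features were called in edgeR, with 1129 and 728 features at an unadjusted p below 0.05. SFRP4 in those fits had differences between batches of -0.75 (SE 0.56) and -0.23 (SE 0.57). With depth matched 3 members were called lower for fibroblasts, SFRP4 (-1.22, SE 0.17, adjusted p = 2.44e-06), SFRP2 (-1.16) and SFRP5 (-0.65), where 2.77% of features were called. For smooth muscle 2 were then called lower, SFRP4 (-0.73) and SFRP5 (-0.62), where 1.79% of features were. In epineurial-fibroblast-rich spots SFRP4 stood at 1291 against 131 CPM and 1422 against 175 CPM in batch 1, and at 19.4 against 19.4 CPM and 11.5 against 10.2 CPM in batch 2. Both specimens of batch 1 were higher in these spots and neither of batch 2 was by more than 1.12 times. The difference between the batches was -3.11 (SE 0.18, adjusted p = 2.96e-38 in edgeR). With spots taken within depth bins it was -1.72 (SE 0.16), where 8.59% of features were called. These bins left depth uneven in this list, at a median of 2494 against 1351.5 UMIs. That list summed to 125 to 436 CPM in batch 1 and to 30.8 to 77.2 CPM in batch 2, and its part in this difference was not tested. FRZB in Schwann-rich spots had the only higher value (1.05, SE 0.24, adjusted p = 0.00676), and with depth matched this was 0.01 (adjusted p = 0.988), where 0.644% of features were called. DESeq2 called 5 of these pairs.

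Section 2 labelled P. anubis, the deepest, was read the same way, as values of 1 section. SFRP1 stood at 509 CPM in Schwann-rich spots and 34.0 CPM in the others, a ratio of 15.0. SFRP4 stood at 2079 against 44.8 CPM in smooth-muscle-rich spots and 2229 against 59.0 CPM in fibroblast-rich spots. SFRP2 stood at 157 against 3.88 CPM and 162 against 5.25 CPM in the same lists. Each of these members was higher in the list named, as it was in M. fascicularis. The SFRP1 ratio was also 7.04 in fibroblast-rich, 5.25 in smooth-muscle-rich, 5.17 in adipocyte-rich and 4.88 in perineurium-rich spots, and 0.314 in neuron-rich spots. Depth was not matched in this section. FRZB stood at 577 against 66.1 CPM in smooth-muscle-rich spots and 48.5 against 147 CPM in neuron-rich spots. SFRP4 was at 53 and 10 UMIs in fibroblast-rich and other spots of section 1 with this label (697 and 33.5 CPM). In the sections labelled M. mulatta it was at 15 and 15 UMIs (1470 and 410 CPM) and at 8 and 7 UMIs (715 and 131 CPM). Smooth-muscle-rich spots of these sections, 6 and 9 in number, held 0 and 1 of its UMIs, or 0 against 670 CPM and 216 against 234 CPM in the others.

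The genes most like each member over spots were taken from the mean correlation of log2 levels within 15 sections, among 7434 genes. The points are spots of shared sections and libraries, so the values are descriptions. For SFRP4 they were IGFBP6, an IGF-binding protein (mean r 0.332), TAGLN, a smooth muscle actin-binding protein (0.282), MGP, the matrix Gla protein (0.266), DCN, the proteoglycan decorin (0.259), and AEBP1 (0.247). For SFRP2 the closest was SFRP4 itself (0.139, or 0.224 in batch 1 and 0.0499 in batch 2), followed by IGFBP6, MGP, TAGLN and EFEMP1, a fibulin. SFRP5 gave TAGLN (0.118), SLC2A1, ITGB4, SFRP4 and IGFBP6. FRZB gave FSTL1 (0.159), CYSTM1, ANXA1, GABARAPL2 and SCG3, and shared no gene with the other lists. All of these are weak correlations in sparse counts. SFRP1, with 208 UMIs, was left out.

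Of 68 other genes of the Wnt pathway, 30 had enough counts for the batch comparison. In edgeR, where 1.61% of all features were called lower, 2 of these genes fell in batch 2 and 0 rose. They were FZD2, a Frizzled receptor (-3.19, SE 0.57, adjusted p = 0.0313), and DKK1, a secreted inhibitor that acts on LRP co-receptors (-4.01, SE 0.68, adjusted p = 0.0258). DKK1 was near the floor of counting, with a median of 1.34 CPM. DKK3, a relative of DKK1, had the highest level of the other inhibitors, at 619 to 1050 CPM (median 846), and did not pass for batch (0.39, SE 0.25, adjusted p = 0.446). The median log2 difference of the 30 genes was -0.04, against -0.01 for all features.

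In the fibroblast fit 11.1% of all features were called higher and 16.8% in either direction. In fibroblast-rich spots 8 of 24 tested pathway genes were higher and 0 lower in edgeR. Among receptors they were FZD2 (2.69, SE 0.27, adjusted p = 0.000321), ROR2 (1.30, SE 0.33) and RYK (1.05, SE 0.29), of 5 tested. Of the R-spondins, secreted proteins that raise Wnt signalling, RSPO1 (4.24, SE 0.48, adjusted p = 0.000644) and RSPO3 (2.11, SE 0.53) were higher and RSPO2 was not called (-0.47). The others were the signalling proteins DVL2 (0.90) and CTNNB1 (0.73), the latter beta-catenin, and the feedback inhibitor NKD2 (2.55). Of 18 Wnt ligands only 3 had enough counts, and 0 passed: WNT10B (-0.96, adjusted p = 0.0590), WNT11 (-0.35) and WNT7A (-0.06). Of 3 tested inhibitors of other families 0 passed, with WIF1 at 1.45 (adjusted p = 0.0592) and DKK3 at -0.23. The median over the 24 genes was 0.64 against 0.00 over all features. The count of 8 was 1 without the female specimen of batch 2, 3 without either specimen of batch 1, 16 without the male specimen of batch 2 and 5 with depth matched.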

How the data were processed

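Per the labels' protocols, fresh-frozen dorsal root ganglia were cryosectioned and run on Visium. The authors deposited matrices of UMI counts, whose headers name Space Ranger 2.0.0 (12 sections) or 2.1.0 (7 sections); Mmul_10 is named in the submitters' processing notes without a role. Tables deposited by the authors per section held summed UMI counts, Moran's I (a score) and its p-value; these were only described. Male section 3 of batch 2 entered through its table alone.

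The members and gene lists were chosen with earlier results of these data known. CPM were computed over spots under tissue. Specimen sums were tested with edgeR 4.0.16 (TMM, low-count filter, quasi-likelihood, Benjamini-Hochberg, threshold 0.05); DESeq2 1.42.0 was an alternative. Marker-rich spots were the highest 25% of spots with at least 200 UMIs; fewer where fewer had a marker UMI. Genes named as most alike were the 5 of highest mean correlation of log2(UMIs per 10000 + 1) for members with at least 500 UMIs; of the Wnt list up to 3 per role by adjusted p or CPM. The scripts were tested on simulated data with known changes. The batch fit called 4% of 2-fold and 78.6% of 4-fold changes there, so a 2-fold change between batches would mostly be missed at the simulated spread. The fit of fibroblast-rich against other spots called 78% and 100%. Of the features called, 0% and 6.32% were false in the batch and fibroblast fits. The simulated features shared a common spread, the specimens did not differ otherwise, and only better-counted features were changed. These shares may therefore not carry over to the measured data.

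No 2 sections of a group agreed within sampling noise: in 26 pairs, chi-square over its degrees of freedom was 3.93 or more. Of 4992 printed barcodes, 4976 occurred in all sections with a matrix, as the slides share positions. Where the labels do not state separate animals, p-values refer only to these specimens. With 2 specimens against 2 a gene's own spread is hardly measured, and edgeR pools the spread over features. A very small p-value in the batch and interaction fits therefore does not stand for more replication. Sections with the same number were checked for pairing: over 24 same-numbered pairs the correlation of deviations ran from -0.203 to 0.518 and exceeded 0.1 in 10, so the numbers were not taken to pair the sections. Between the female and male specimens of batch 1 all 4 exceeded 0.1 (0.232 to 0.518), but each female section correlated more with another male number, sections 1 and 2 standing apart from 3 and 4. Tests on specimen sums do not use the numbers. No genome of the files' build was used, so no positions or sequences are given.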

Additional observations from a re-analysis of the deposited data

Results flagged for a closer look

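Of 39 groups of 4 sections checked, 2 held a section far from the rest, and chance marks about 1 group in 20. SFRP4 stood at 1036 CPM in female section 1 of batch 1, with the other 3 sections at 146 to 222 CPM. FRZB had a Moran's I of 0.0622 in male section 1 of batch 2 in the authors' deposited table, with the others at 0.0042 to 0.0108.

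The difference between marker-rich and other spots differed between the batches for 16 pairs of gene and list in edgeR's interaction test (log2, batch 2 minus batch 1). FRZB in Schwann-rich spots had 1.05. In epineurial-fibroblast-rich spots SFRP4 had -3.11, SFRP2 -3.10, SFRP1 -2.91 and SFRP5 -1.53. In perineurium-rich spots SFRP1 had -2.86, SFRP4 -1.64, SFRP2 -1.57 and SFRP5 -1.35. In endoneurial-fibroblast-rich spots SFRP4 had -1.72 and SFRP5 -0.51. In endothelium-rich spots SFRP4 had -1.65 and SFRP5 -0.51. In satellite-glia-rich spots SFRP4 had -1.23 and SFRP5 -0.43. In adipocyte-rich spots SFRP4 had -1.19. The share of features called in these fits was 28.2% for epineurial fibroblasts, 9.61% for perineurium, 6.29% for adipocytes, 4.00% for endothelium, 2.97% for satellite glia, 2.13% for endoneurial fibroblasts and 1.35% for Schwann cells.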

How the results depend on the processing

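The causes of the changes below were not tested. Members called between batches numbered 2, but 4 without a filter on low counts and 4 with sections as samples and no replicate block. They numbered 1 within smooth-muscle-rich spots, 1 outside the fibroblast-rich spots and 0 within the fibroblast-rich ones, and 1 to 3 with a section left out (1 without male section 1 or 2 of batch 2). With the section number as a replicate block 3 were called, but the numbers do not pair the sections across the batches. Sections of a specimen are not independent samples. The share of all features called is not given here for these settings, so the counts are no result about the members. The members called between sexes numbered 0 in every setting run. Of 33 pairs called between marker-rich and other spots, 2 were called without the specimen block, and 24 to 39 were called with a specimen left out. Interaction calls fell from 16 to 5 in DESeq2.

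Wnt pathway genes called between batches numbered 2, but 9 with sections as samples, 10 with the replicate block, 1 within smooth-muscle-rich and 1 within Schwann-rich spots, 0 within and 0 outside fibroblast-rich spots, and 0 to 2 with a section left out. In fibroblast-rich spots 8 became 0 without the specimen block, 3 with scaled genes as the list score, 4 with each spot in 1 list, 5 with depth matched and 1 to 16 with a specimen left out.

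Directions turned for SFRP2 in Schwann-rich (-0.15) and adipocyte-rich spots (-0.32) and SFRP4 in Schwann-rich (-0.38) and adipocyte-rich spots (-0.52) with depth matched. They turned for SFRP4 in pericyte-rich (-0.38) and adipocyte-rich spots (-0.13) with each spot in 1 list. With the highest 10% of spots they turned for SFRP4 in endoneurial-fibroblast-rich spots (0.50) and for its satellite glia interaction (0.57).

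Over shared symbols the means were 134 CPM (SFRP1) and 857 CPM (SFRP4) in the M. mulatta label, and 144 CPM (SFRP1), 34.6 CPM (SFRP2), 392 CPM (SFRP4) and 180 CPM (FRZB) in the P. anubis label. Moran's I recomputed here had batch 2 medians of 0.128 for SFRP4 (0.144 at 500 UMIs per spot) and 0.0544 for FRZB (0.0463), and a batch 1 median of 0.125 for FRZB. Low counts limit SFRP1 and SFRP2 most, and also SFRP4 in batch 2 (484 UMIs over 8 sections).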
